A study of Rattus norvegicus with 12 samples.

Results

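Ugt2b35, Ugt2b15 and Sult1c3 are phase II conjugation enzymes whose transcripts also gave circular RNAs (circRNAs), closed RNA loops recognised by sequencing reads that cross a back-splice junction. The genes were chosen by the mean level of their circles in these libraries, which stood high among liver enzymes, and by a table entry of Ugt2b35 that had appeared to be lost in relapse, so their levels and that difference are given as descriptions without a test. All entries of the deposited table that carry these gene symbols were taken, together with entries named by an Ensembl identifier that share their transcript or their junction. This gave 11 of 21876 entries, which describe 9 of 21068 junctions, for 3 of 6233 host genes. They held 5070 of the 284534 back-splice reads (1.78%).

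The libraries came from liver of wild type Wistar rats. All rats, the controls included, were fed fat-rich chow (60% of calories from fat) for 4 weeks. They then fasted for 16 h and had 1 injection of streptozotocin (35 mg/kg), which kills insulin-producing cells. Rats were taken as diabetic when fasting glucose was above 16.7 mmol/L 3 days later, and were randomised, with matched body weight, to sleeve gastrectomy (SG), which takes out the larger share of the stomach, or to sham surgery. There were 5 sham libraries, 5 libraries taken 3 months after SG, and 2 from rats in which diabetes came back after SG (relapse). The sources used here do not give the sampling times of the sham and relapse groups or the feeding state, and the labels do not say that each library is a separate animal, so that p-values speak only of the spread between libraries. Linear RNA had been digested with RNase R, so the values are of circles and the linear mRNA of the genes was not measured. The libraries held 18176 to 37229 back-splice reads. A count of 0 therefore allows up to 165 reads-per-million (RPM, scaled to all back-splice reads of the library) in the smallest library and up to 80.6 RPM in the largest. Circles of 9 of 13 hepatocyte markers were read, with sums of 9126 to 14029 RPM in sham, 7370 to 12523 after SG and 7741 to 8434 in relapse. None of the 5 cholangiocyte markers or the 8 markers of pancreas and gut had a read. Of the other lists, 3 of 9 stellate cell, 2 of 7 Kupffer cell, 3 of 6 endothelial and 1 of 9 lymphocyte and granulocyte markers were read, with sums of at most 246, 786, 188 and 47.3 RPM in any library.

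UDP-glucuronosyltransferases (UGTs) of the endoplasmic reticulum attach glucuronic acid from UDP-glucuronic acid to steroids, bile acids, bilirubin and drugs. Cytosolic sulfotransferases (SULTs) transfer a sulfonate group from the donor PAPS to phenols, steroids and drugs. Both make their substrates more soluble in water for export into bile or urine, and the liver is a main site of both reactions. Ugt2b35 and Ugt2b15 belong to the UGT2B subfamily, whose genes lie in a cluster of similar copies, and Sult1c3 to the SULT1C subfamily.

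The promoters of the pair of UGT genes shared a stretch of sequence that the promoter of Sult1c3 lacked. They are shown as the promoters listed under the names of these genes, and whether the transcripts behind the circles start there was not tested. The windows below are from RefSeq on GRCr8, 60 bases each within the 250 bases before the transcription start, and all 3 genes were matched by symbol. Capitals mark GTTANNNNNTAAC, the outer letters of the palindrome bound by the liver factors of the HNF1 family, a motif chosen after the sequences had been seen. The windows are at chr14:21208329-21208388 (plus strand) for Ugt2b35, chr14:21122754-21122813 (plus strand) for Ugt2b15 and chr9:7594309-7594368 (minus strand) for Sult1c3.
Ugt2b35: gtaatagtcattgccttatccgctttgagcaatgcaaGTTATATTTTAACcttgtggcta
Ugt2b15: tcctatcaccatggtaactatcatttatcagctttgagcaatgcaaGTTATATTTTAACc
Sult1c3: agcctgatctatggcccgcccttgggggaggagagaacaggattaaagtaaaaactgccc

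Over the 250 bases before the start, the longest run shared by the Ugt2b35 and Ugt2b15 promoters was 31 bases and contained the palindrome. It began 91 bases before the start of Ugt2b35 and 82 bases before that of Ugt2b15. The longest run that Ugt2b35 shared with Sult1c3 was 9 bases, and that of Ugt2b15 with Sult1c3 was 7 bases. The palindrome, which reads the same on both strands, was in 78 of all 33469 promoters of that table (0.233%), in 7 of 10 promoters of Ugt2b genes and in 0 of 15 promoters of Sult genes. The 7 include those of Ugt2b35 and Ugt2b15, which had been seen when the motif was chosen. The match describes letters in these windows and is not a measured binding site. The names of close copies in the cluster vary between annotations, since RefSeq lists Ugt2b15 among the older names of Ugt2b35. Reads could also be split between near-identical copies, so the levels of Ugt2b35 and Ugt2b15 are uncertain in that respect.

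Each gene made 1 main circle. Positions of circles are on Rnor_6.0 and counted from 1. Ugt2b35 gave 2851 reads, of which 2811 belonged to a circle of exons 4 and 5 at chr14:22576810-22578155 on the plus strand, which spans 1346 bp. The exon numbers are those of the symbol entry, on transcript ENSRNOT00000092201. The introns on either side are those of the identifier entry, on transcript ENSRNOT00000002712. They are long, with 19135 bp before the circle and 12772 bp after it. Both remaining junctions of Ugt2b35, ciRNA549 with 31 reads in 5 libraries and ciRNA548 with 9 reads in 2 libraries, were typed by the authors as intronic, although their intervals nearly coincide with the main circle. CiRNA548 spans 1366 bp and ciRNA549 spans 1368 bp.

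Sult1c3 gave 1871 reads, all of a single circle, circRNA2223. It joins exons 2, 3 and 4 at chr9:4942768-4945352 on the minus strand and spans 2585 bp. This junction was written as 1 entry only and had reads in all 12 libraries, from 43 to 323.

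Ugt2b15 gave 348 reads in 5 junctions that share splice sites. The main circle held 326 of them and joins exons 2, 3 and 4 at chr14:22421171-22433579 on the plus strand, over 12409 bp between introns of 2867 and 2592 bp. CircRNA746 starts at the same exon 2 and runs on through exon 5, to base 22436390, with 14 reads in 6 libraries. The other 3 junctions had 4, 2 and 2 reads, each in a single library. These counts hold for the junctions that the rule reached. With the other circles deposited under the identifier of Ugt2b15, described further on, the main circle would hold 326 of 600.0 reads.

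**Figure D1:**
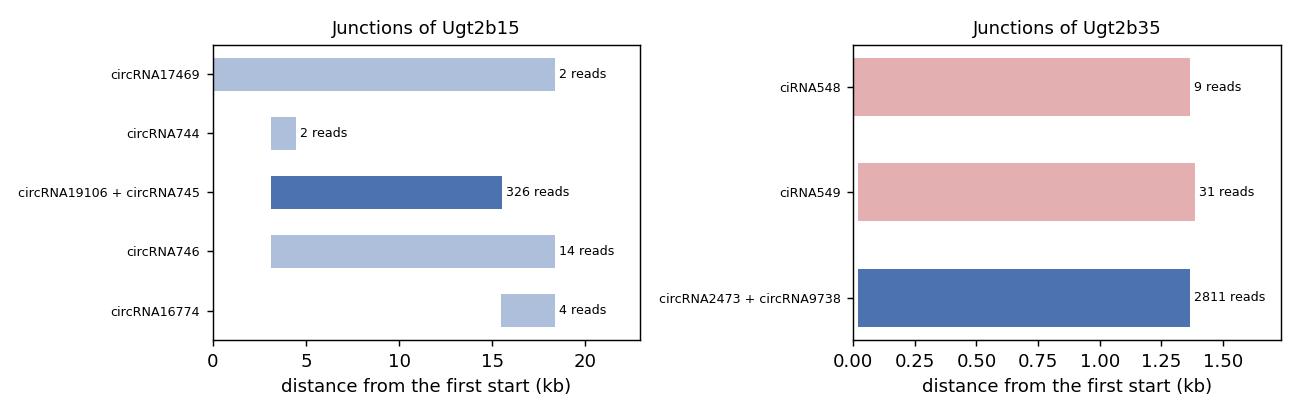
Back-splice junctions of Ugt2b15 (left) and Ugt2b35 (right) drawn to scale as bars from start to end, in kb from the first start of each gene, with the reads over 12 libraries beside each bar. Dark blue bars are the main circles, with 326 and 2811 reads, pale blue bars the other exonic junctions and pink bars the junctions typed as intronic; Sult1c3 has 1 junction and is not drawn.

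Ugt2b35 was the most abundant of the genes, Sult1c3 followed and Ugt2b15 was the lowest. Averaged over 12 libraries, circles of Ugt2b35 had 10243 ± 3227 RPM (SD, n = 12) and ranked place 5 of 6233 host genes. Sult1c3 had 6385 ± 2807 RPM (SD, n = 12), place 7, and Ugt2b15 1239 ± 478 RPM (SD, n = 12), place 126. With the wider join of identifiers described further on, Ugt2b15 had a mean of 2150 RPM. A circle gives reads only at its junction, so these levels compare junction reads without a correction for length. In single libraries Ugt2b35 ranked between places 3 and 17, Sult1c3 between 5 and 54 and Ugt2b15 between 59 and 582. The ranges of Ugt2b35 and Sult1c3 over libraries overlapped, while Ugt2b15 lay below both in every library.

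For Ugt2b35, the sham libraries 1 to 5 had 5097, 16010.1, 7964, 11232 and 13018 RPM. The SG libraries 1 to 5 had 7750, 12431, 9223, 5996 and 13491 RPM, and the relapse libraries 1 and 2 had 9960.5 and 10744 RPM. Both relapse libraries lay within the range of each other group, and the lowest and the highest of all 12 were sham libraries, a 3.14-fold range. The means were 10664 ± 4264 in sham (SD, n = 5), 9778 ± 3144 after SG (SD, n = 5) and 10352 ± 554 in relapse (SD, n = 2).

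For Sult1c3, the sham libraries 1 to 5 had 6653, 2531, 3852, 2156 and 7718 RPM. The SG libraries had 5482, 10957, 7713, 9109 and 3766 RPM, and the relapse libraries 8012 and 8676 RPM. Sham fell into low values in 3 libraries and high values in 2. The 5.08-fold range over all libraries ran from sham library 4 to SG library 2. After SG 4 of 5 libraries lay above the sham mean and 2 of 5 above the highest sham library. The means were 4582 ± 2487 in sham (SD, n = 5), 7405 ± 2853 after SG (SD, n = 5) and 8344 ± 469.8 in relapse (SD, n = 2).

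For Ugt2b15, the sham libraries 1 to 5 had 1192, 990.3, 1562, 1003 and 325 RPM. The SG libraries had 1134, 1719.7, 1348, 1343 and 685 RPM, and the relapse libraries 2165 and 1397 RPM. The highest value was relapse library 1 and the lowest sham library 5, which held 7 reads (Wilson 95% interval 158 to 672 RPM, counting error only), a 6.65-fold range. This place of sham library 5 depends on the junctions that the rule reached. With the wider join of identifiers described further on, it had 28 reads and 1302 RPM. Sham library 1 was then the lowest with 1192 RPM, and the range was 4.13-fold. The means were 1014 ± 449 in sham (SD, n = 5), 1246 ± 378 after SG (SD, n = 5) and 1781 ± 543 in relapse (SD, n = 2). In whole-liver RNA, fewer cells of a type and less RNA per cell cannot be told apart.

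**Figure D2:**
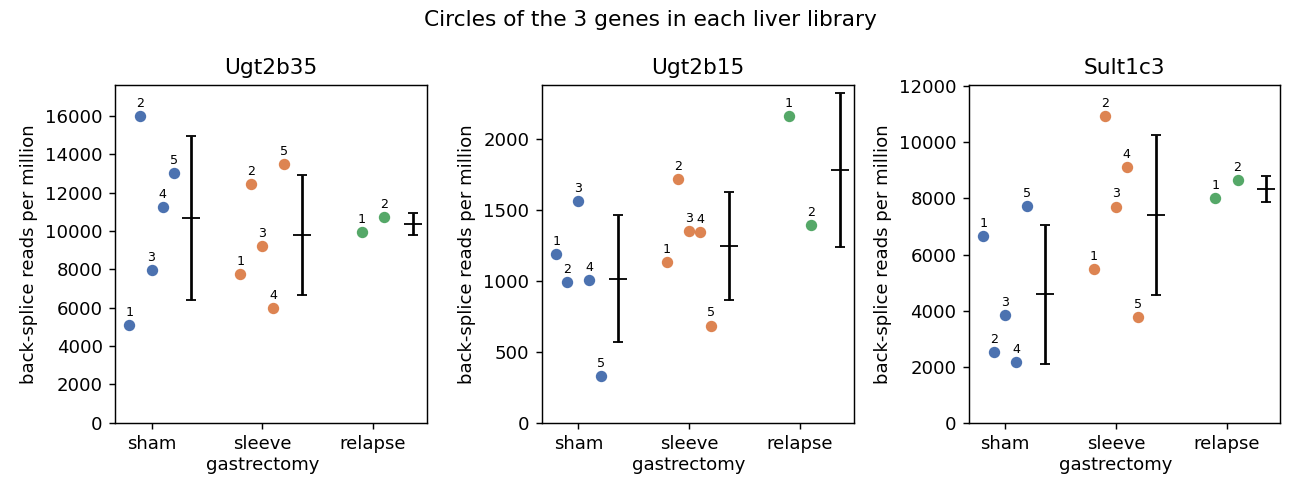
Summed circle level of each gene in back-splice reads-per-million (vertical axis, from 0, a scale of its own for each gene) in the 12 liver libraries, numbered by replicate, with group mean and SD as black bars. Ugt2b35 overlaps between all groups, and the relapse libraries of Sult1c3 (8012 and 8676) lie above every sham library. Sham library 5 is the lowest for Ugt2b15, counted over the junctions that the rule reached.

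The main circle of Ugt2b35 was written in the table under different names in different libraries. The identifier entry circRNA2473 (ENSRNOG00000001980, transcript ENSRNOT00000002712) held 2312 reads in 9 libraries, and the symbol entry circRNA9738 (transcript ENSRNOT00000092201) held 499 reads in the other 3. The symbol entry had 154 reads in sham library 1, 171 in SG library 3 and 174 in SG library 4, and no library had reads in both entries. Added up, the junction had 154, 291, 153, 222 and 280 reads in sham, 157, 253, 171, 174 and 383 after SG, and 184 and 389 in relapse. No library lacked the circle. The same split was seen at the main circle of Ugt2b15, where 11 libraries were counted under the symbol (circRNA745, 322 reads) and sham library 5 only under the identifier (circRNA19106, 4 reads). Among all junctions 808 had 2 entries, and in 794 of them no library had reads in both.

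**Figure D3:**
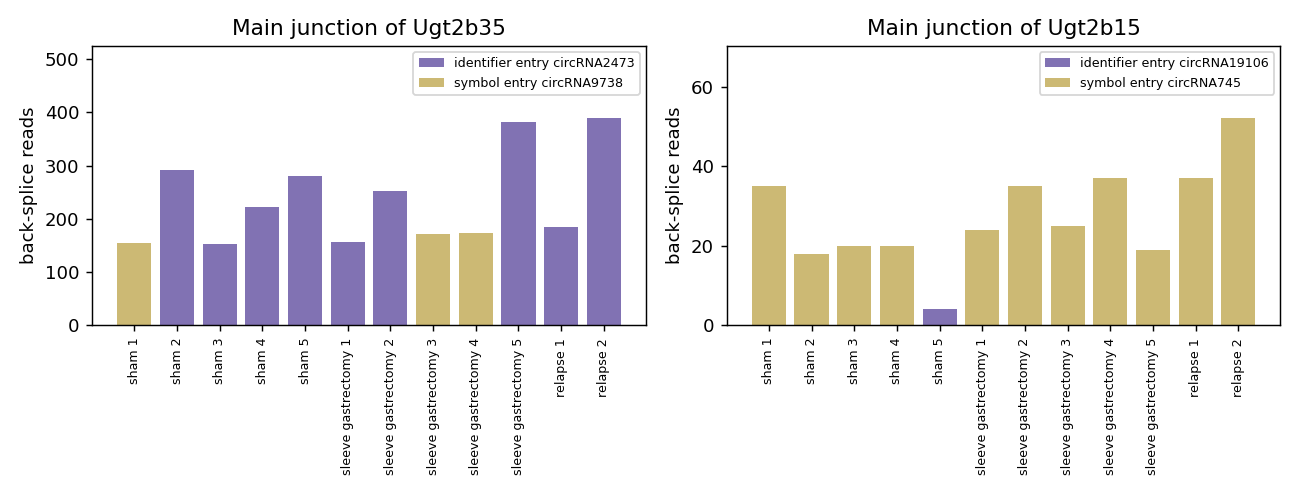
Back-splice reads (vertical axis) at the main junction of Ugt2b35 (left) and Ugt2b15 (right) in each library, coloured by the table entry that holds them. For Ugt2b35 the symbol entry (ochre) holds the reads of 3 libraries and the identifier entry (violet) those of the other 9, and no bar has both colours.

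A difference between relapse and the other groups that the symbol entry showed was not seen in the summed junction. Tested as deposited, the symbol entry circRNA9738 had 0 reads in both relapse libraries, and DESeq2 fitted a log2 change of -22.43 against SG and -20.90 against sham, values that a group at 0 leaves without a bound. edgeR fitted -9.13 and -7.73 for the same entry. With the reads of both entries summed, DESeq2 gave 0.07 (SE 0.39) against SG and -0.06 (SE 0.39) against sham for the junction. The circle itself was read at 184 and 389 reads in relapse.

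SG libraries were compared with sham to see how the circles went with the operation. Counts summed per gene were tested with edgeR's quasi-likelihood test on 1347 host genes, and all 3 genes passed the filter on low counts. None of the 3 passed the threshold of 0.05 on the adjusted p, against 0.148% of all hosts. For Sult1c3 the log2 change was 0.66 (SE 0.39), a fold of 1.58 with a 95% interval of 0.878 to 2.85 (adjusted p = 1). For Ugt2b15 it was 0.27 (SE 0.32), with an interval of 0.772 to 1.89-fold, and for Ugt2b35 -0.14 (SE 0.25), with an interval of 0.631 to 1.31-fold (both with edgeR adjusted p = 1). Without sham library 5 the value of Ugt2b15 was 0.059, and without sham library 3 it was 0.46. The groups overlapped for all 3 genes, and did not overlap for 0.817% of hosts.

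Relapse libraries were compared with SG to see what went with the return of diabetes. Neither Ugt2b15 nor Sult1c3 passed in edgeR, where 0.0% of hosts did, with 58 of 1347 at an unadjusted p under 0.05 and 0 called by DESeq2 or limma-voom. Ugt2b15 had a log2 change of 0.47 (SE 0.40; 0.792 to 2.43-fold) and Sult1c3 of 0.15 (SE 0.50; 0.52 to 2.38-fold), both with edgeR adjusted p = 1. For Ugt2b35, given without a test, the change was 0.07 (SE 0.33), with an interval of 0.65 to 1.69-fold. All 3 genes overlapped between these groups, while 10.2% of hosts did not. With the wider join of identifiers described further on, Ugt2b15 had 4926 and 2605 RPM in relapse, above the highest SG library with 2457 RPM.

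Relapse against sham gave the largest differences for Sult1c3 and Ugt2b15, and neither passed. Sult1c3 had a log2 change of 0.81 (SE 0.49), 1.76-fold with an interval of 0.834 to 3.71 (edgeR adjusted p = 0.937). Its relapse libraries did not overlap with sham, as was the case for 10.2% of hosts, so a lack of overlap with 2 libraries was common. Ugt2b15 had 0.75 (SE 0.41), 1.68-fold with an interval of 0.956 to 2.94 (edgeR adjusted p = 0.833), with both relapse libraries above the sham mean and 1 above the highest sham library. Ugt2b35, again without a test, had -0.07 (SE 0.34), with an interval of 0.588 to 1.54-fold. In edgeR 0.148% of hosts passed. The relapse comparisons with sham and with SG share the 2 relapse libraries.

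**Figure D4:**
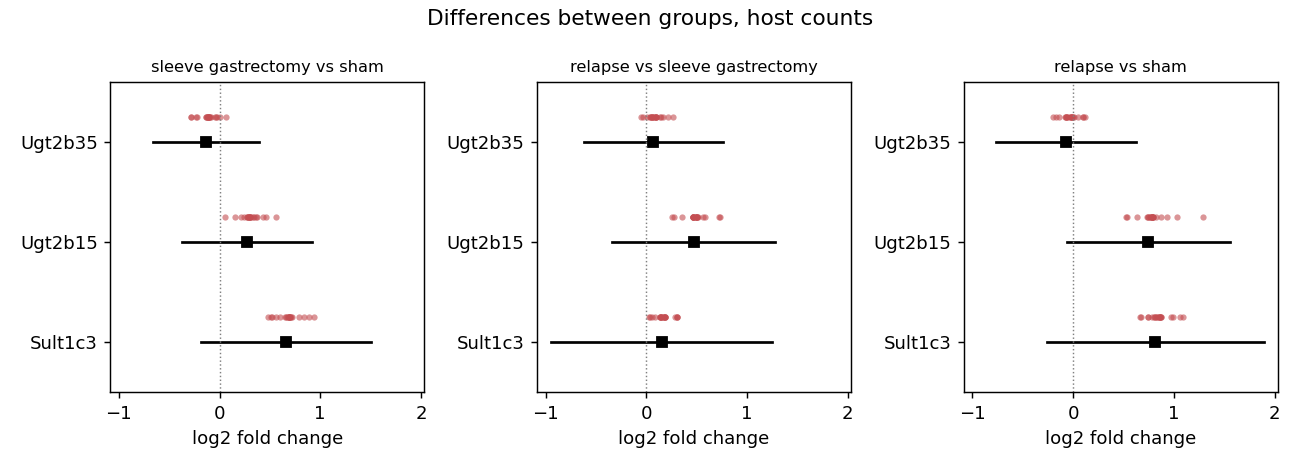
Log2 fold change of the summed circles of each gene in the 3 comparisons (black squares, edgeR) with 95% intervals (black lines), and the value under each alternative processing (red dots, without the fit on symbol entries alone, which lies off the scale for Ugt2b35). The intervals of Ugt2b15 and Sult1c3 include 0 in all comparisons, as does that of Ugt2b35 in SG against sham. The intervals of Ugt2b35 in the relapse comparisons are descriptions and not tests. The highest black square is Sult1c3 in relapse against sham, at 0.81.

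Circles were also tested one by one. Of the 9 junctions, 4 passed the filter on low counts. The main circles of Ugt2b15 and Sult1c3 did not pass the threshold in any comparison, nor that of Ugt2b35 in SG against sham, where 0.0% of the 1519 junctions passed in each comparison (edgeR; 59, 73 and 88 had an unadjusted p under 0.05, and DESeq2 and limma-voom called 0). The smallest p among these was that of the main Ugt2b15 circle in relapse against sham, with a log2 change of 0.94 (SE 0.43; edgeR adjusted p = 0.806). CiRNA549 of Ugt2b35 had 1 sham library with reads (2 reads) against 3 SG libraries (7, 7 and 11 reads) and 1 relapse library (4 reads). It passed the filter through the SG libraries in which it was read, so no test of it is given.

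The share of a gene's reads in its main circle was compared between groups as a measure apart from the gene's level. For Ugt2b35 it was 99.8 ± 0.399% in sham (SD, n = 5), 97.6 ± 2.32% after SG (SD, n = 5) and 98.6 ± 1.94% in relapse (SD, n = 2). All of its reads lay there in 4 sham, 2 SG and 1 relapse library, and the share was lowest in SG library 4 with 95.1% (Wilson 95% interval 90.9 to 97.4%). Two-sided exact permutation p-values were 0.167 (SG against sham), 0.524 (relapse against SG) and 0.286 (relapse against sham; adjusted over 6 tests 0.857, 0.964 and 0.857). Without ties, groups of these sizes would allow values down to 0.00794, 0.0476 and 0.0476. Shares tied at 100% make the smallest value that can be reached in SG against sham larger than that.

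For Ugt2b15 the share was taken in libraries with at least 10 reads, which left out sham library 5. It was 91.0 ± 16.3% in sham (SD, n = 4), 97.0 ± 4.38% after SG (SD, n = 5) and 96.25 ± 5.30% in relapse (SD, n = 2). Sham library 3 was apart with 66.7% (20 of 30 reads, Wilson 95% interval 48.8 to 80.8%), and held the 4 reads of circRNA16774 and 4 of the 14 reads of circRNA746. The exact permutation p-values were 0.643, 1 and 0.933 in the order given for Ugt2b35. Without sham library 3 the difference between SG and sham changed from 6.08 to -2.03 percentage points. That between relapse and sham changed from 5.28 to -2.82. These shares cover only the junctions that the rule reached. With the wider join of identifiers described further on, the main circle held 97 of 156 reads pooled over all sham libraries. It held 140 of 256 after SG and 89 of 188 in relapse. The share was then highest in sham, and no test of it was run.

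No pair of the genes passed a permutation test of their relation across the 12 libraries. Over 3 pairs on log2(RPM + 100), Ugt2b35 and Ugt2b15 had Pearson's r = -0.36 (permutation p = 0.257, adjusted 0.444) and Spearman's rho = -0.41 (permutation p = 0.193, adjusted 0.289), with r = -0.46 without the 2 libraries farthest from the median of Ugt2b35. Ugt2b35 and Sult1c3 had r = -0.32 (permutation p = 0.313, adjusted 0.444) and rho = -0.25 (permutation p = 0.433, adjusted 0.433), with r = -0.20 without those libraries. Ugt2b15 and Sult1c3 had r = 0.25 (permutation p = 0.444, adjusted 0.444) and rho = 0.57 (permutation p = 0.0595, adjusted 0.179), and r = 0.65 without sham library 5 and SG library 5, so this value rests on those libraries. With group means removed the r values were -0.43, -0.39 and -0.03. Each group has fewer than 6 libraries, so no value is given within a group.

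Hosts whose circles followed each gene most closely over 12 libraries were ranked by Spearman's rho among the 1346 other tested hosts, as a description without a test. All values share the depth of a library. For Sult1c3 they were Car8, a carbonic anhydrase-related protein, with rho 0.83 (271 reads), the nucleoside transporter Slc29a1 with 0.82 (50 reads) and AABR07028902 with 0.81 (65 reads). Car8 had 563 ± 310.2 RPM in sham (SD, n = 5), 999.7 ± 374 after SG (SD, n = 5) and 1577 ± 10.6 in relapse (SD, n = 2). For Ugt2b35 they were Trim33, an E3 ubiquitin ligase, with 0.92 (47 reads), AABR07035343 with 0.81 (68 reads) and the kinase Taok3 with 0.78 (58 reads). For Ugt2b15 they were AABR07068272 with 0.80 (1047 reads), the RNA-binding protein Rbms2 with 0.77 (191 reads) and the mitochondrial glutamate dehydrogenase Glud1 with 0.76 (23 reads).

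None of the 38 tested hosts of the wider conjugation pathway, in 7 lists, passed in edgeR in any comparison. Limma-voom called 2 of them in relapse against sham, both higher in relapse: Ces1d and ENSRNOG00000046540. Hosts named only by an identifier were put in the UGT and SULT lists by the description deposited with them, a step added after the data were seen. The UGT list had 3 of 23 genes with reads and 2 tested. Its log2 changes had a median of 0.91 (SG against sham), 0.24 (relapse against SG) and 1.15 (relapse against sham), beside 0.01, -0.04 and -0.07 over all hosts. The tested genes were ENSRNOG00000001973, described as UGT2 member A3, with 862 reads, and ENSRNOG00000046540, the identifier of Ugt2b15 circles that the junction rule did not reach, with 252 reads. The former had 2306 ± 1414 RPM in sham (SD, n = 5), 3898 ± 1758 after SG (SD, n = 5) and 2821 ± 1064 in relapse (SD, n = 2).

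The circles of ENSRNOG00000046540 outside the rule lie in the region of Ugt2b15 and Ugt2b35 on chromosome 14. CircRNA2935, with 185 of the 252 reads, spans 45316 bp and ends at base 22529856. It lies between the junctions of Ugt2b15 and those of Ugt2b35 and overlaps neither. CircRNA2934, with 62 reads, spans 40098 bp. It ends at base 22418303, next to the intron that precedes the main Ugt2b15 circle. Their host had 454.5 ± 519 RPM in sham (SD, n = 5), 938 ± 369.6 after SG (SD, n = 5) and 1985 ± 1097 in relapse (SD, n = 2). It was called in relapse against sham by limma-voom and not by edgeR (log2 change 2.08, SE 1.02, adjusted p = 0.833) or DESeq2. If these reads are counted as Ugt2b15, the gene has 600.0 reads and means of 1469, 2184 and 3766 RPM. Its log2 change in relapse against sham becomes 1.29 (edgeR adjusted p = 0.0651). That join was chosen after the data were seen, and it adds reads of a host whose mean was highest in relapse. The p of the joined counts is therefore no test of a difference.

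The SULT list had 5 of 15 genes with reads and 3 tested, with medians of -0.14, -1.75 and -0.90 in the same order of comparisons. Sult1e1, which sulfates estrogens, had 114 reads, with 529 ± 436.5 RPM in sham (SD, n = 5), 411 ± 324 after SG (SD, n = 5) and 108 ± 0.582 in relapse (SD, n = 2). ENSRNOG00000047986, described as a member of the SULT2A subfamily, which sulfates bile acids and hydroxysteroids, had 1279 ± 690.5 RPM in sham, 2305 ± 1601 after SG and 701 ± 80.05 in relapse. Both had their lowest mean in relapse, as did Sult1b1 with 25 reads (93.2, 98.0 and 81.2 RPM). Sult1c3 had its highest there. So did the phenol sulfotransferase Sult1a1 (120.1 ± 119.8, 114 ± 37.5 and 176 ± 211 RPM), with 34 reads, 7 of them in relapse. Sult2a2, with 17 reads in all, also had its highest mean there. Its deposited description is the same as that of ENSRNOG00000047986, so these may be circles of 1 gene under different names. Sult1b1 and Sult2a2 had too few reads for the test.

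Of the cofactor and deconjugation genes 10 of 13 had reads and 3 were tested, with medians of -0.25, -0.63 and -0.88. Ugdh, which makes UDP-glucuronic acid, had 530.1 ± 307 RPM in sham (SD, n = 5), 439.9 ± 206 after SG (SD, n = 5) and 269 ± 151 in relapse (SD, n = 2). Arsb, a lysosomal sulfatase, had 382 ± 219, 211 ± 178 and 108 ± 153 RPM in the same groups. Of other conjugation enzymes 11 of 31 had reads and 4 were tested, with medians of 0.02, -0.15 and -0.19. As3mt, an arsenic methyltransferase, had 1210.0 ± 552, 1219 ± 578 and 917 ± 81.2 RPM, and Gstm2, a glutathione transferase, had 25 reads in 4 libraries and 0 in both relapse libraries.

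Phase I enzymes, which oxidise or hydrolyse substrates before conjugation, had reads for 33 of 47 genes and 14 tested, with medians of -0.12, -0.52 and -0.57. Cyp2c7, a cytochrome P450, had 19914 ± 2584 RPM in sham (SD, n = 5), 20502 ± 4115 after SG (SD, n = 5) and 11849 ± 603 in relapse (SD, n = 2), and Cyp2c6v1 2233 ± 729.5, 1915 ± 337 and 1173 ± 25.4 RPM. The adjusted p of Cyp2c7 in edgeR was 0.433 for relapse against SG and 0.405 for relapse against sham. Ces1d, a carboxylesterase, went the other way, with 937 ± 1535 RPM in sham (SD, n = 5), 807 ± 1452 after SG (SD, n = 5) and 3172 ± 1561 in relapse (SD, n = 2), and passed in limma-voom and not in edgeR (adjusted p = 0.975 for relapse against sham). Of the nuclear receptors and regulators 20 of 29 had reads and 5 were tested, with medians of 0.14, -0.13 and 0.08. Ppara, the fatty acid receptor, had 1542 ± 427, 779 ± 252 and 728 ± 42.1 RPM, and Arnt, the partner of the dioxin receptor, 208 ± 203, 241 ± 199 and 526.5 ± 251 RPM.

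Transporters that export conjugates or take up their substrates had reads for 14 of 16 genes and 7 tested, with medians of -0.23, -0.29 and -0.53. Abcc6, an ABC transporter of the liver, had 1071 ± 244.5 RPM in sham (SD, n = 5), 903 ± 205 after SG (SD, n = 5) and 1417 ± 369.9 in relapse (SD, n = 2). Abcb4, which moves phospholipid into bile, had 84.5 ± 77.4, 282 ± 144 and 269.6 ± 1.46 RPM. No list had a member past the threshold in either direction in edgeR, beside 2, 0 and 2 hosts of 1347 over the 3 comparisons.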

How the data were processed

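CircRNAs were measured in 12 liver libraries. The submitters' processing notes name cutadapt 1.9, FastQC, TopHat2 2.0.10 and Rnor_6.0; the caller of back-splice reads is not given in the sources used here. The count columns deposited by the authors hold whole back-splice read counts per entry; the score called SRPBM, deposited by the authors beside them, was not used. Exon numbers are those that the authors deposited (another column, not a measurement). The entries of a junction, and of a host gene, were summed, where identifier entries were joined row by row through transcript or junction. Symbol starts, which count from 0, were raised by 1.

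Differences were tested in R 4.3.3 with edgeR 4.0.16, after TMM scaling and filterByExpr (minimum count 5, total 15), 1 robust quasi-likelihood fit of 3 groups, Benjamini-Hochberg adjustment over the whole table and a threshold of 0.05. Alternatives were DESeq2 1.42.0, limma-voom (limma 3.58.1), other filters, scalings and joins, a replicate block and leaving out each library. Shares were compared by exact permutation of samples and correlations by 100000 permutations (SciPy 1.17.1). RPM (reads-per-million) take a library's back-splice total as the denominator. Depth was 18176 to 37229 reads, and intervals and floors cover counting error only. Promoter sequences are from RefSeq on GRCr8.

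The members and lists were chosen with earlier results of these data known. The naming rule covers junctions with at least 10 reads and up to 2 hosts of each list with the smallest p. It also covers, for each member, the 3 hosts with the highest rho. Junctions of fewer reads, circRNA2934, circRNA2935, Ces1d, Sult1a1, Sult1b1 and Sult2a2 were named after their values were seen.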

Additional observations from a re-analysis of the deposited data

Results flagged for a closer look

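In 4 of 18 groups of 4 or 5 libraries, 1 library stood apart by Dixon's criterion. Chance meets the criterion in about 1 of 20 groups of normal values. The groups here share reads, and some hold zeros or tied shares, so that rate does not apply to them. The main Ugt2b15 circle (circRNA745 with circRNA19106) had 186 RPM in sham library 5, far below the other sham libraries; this is the library whose reads of that circle stand under the identifier. CircRNA746 of Ugt2b15 had 131 RPM in SG library 4, from 4 reads. The main circle held 66.7% of the Ugt2b15 reads in sham library 3, below the other 3 sham libraries with at least 10 reads (sham library 5, with 7 reads, had 57.1%), and 99.1% of the Ugt2b35 reads in sham library 4, where the other 4 sham libraries held all reads in it. The last of these rests on 2 reads of another junction.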

How the results depend on the processing

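Under the alternatives 651 values kept their direction and side of the threshold, 54 moved and 32 changed sign, and neither Ugt2b15 nor Sult1c3 passed the threshold under any alternative. The replicate numbers showed no sign of pairing libraries (same-number correlations of deviations -0.083 to 0.038). The deviations of the 2 relapse libraries mirror each other, and pairing is not excluded. With the replicate block 0 hosts passed for SG against sham and 0 for relapse against sham. Junctions that passed with it were 1, 2 and 1 in the order used above, and Ugt2b35 in relapse against sham was 0.051 (main junction 0.090). Ugt2b35 lay near 0 and changed sign: symbol entries alone gave 1.41 and -9.15 (junction 1.37 and -9.13) for the first comparisons, limma-voom 0.10 (junction 0.13) and no filter 0.033 (junction) for relapse against sham. The cause was not tested beyond the split of entries.

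Hosts past the threshold were 0 for SG against sham with DESeq2, limma-voom, a minimum count of 10 and the 2 groups alone. For relapse against SG they were 1 with DESeq2 size factors, 2 without a filter and 1 with the gene by gene join, an alternative chosen after seeing the data. For relapse against sham they were 1 with DESeq2, 4 with limma-voom (among them Ces1d and ENSRNOG00000046540), 1 with a minimum count of 10 and 1 with the 2 groups alone. Junctions without a filter were 2 for relapse against SG and 1 for relapse against sham. Mean RPM of Ugt2b35 from symbol entries alone were 1019, 2985 and 0, and r with Ugt2b15 and Sult1c3 became 0.18 and 0.35. TMM-scaled means in relapse were 13156 (Ugt2b35) and 10605 (Sult1c3), on another scale than RPM. They are not given here for sham or SG, so they cannot be read as a rise in relapse. The gene by gene join gave Ugt2b15 means of 1469, 2184 and 3766, and r of Ugt2b15 and Sult1c3 was -0.030 with group means removed.

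Leaving out each library in turn gave Ugt2b35 log2 changes of -0.29 to 0.063, -0.051 to 0.27 and -0.20 to 0.12 in the 3 comparisons. The sign changed in the first without sham 2 (0.063) or SG 4 (0.0088), in the next without SG 4 (-0.034) or relapse 2 (-0.051) and in the last without sham 2 (0.12), sham 5 (0.013) or relapse 1 (0.096). Ugt2b15 ranged from 0.059 to 0.46, 0.25 to 0.72 and 0.53 to 1.04 and Sult1c3 from 0.48 to 0.94, 0.025 to 0.31 and 0.67 to 1.09. The main Ugt2b35 junction ran from -0.30 to 0.072, -0.16 to 0.23 and -0.26 to 0.17, that of Sult1c3 from -0.091 to 0.34 in relapse against SG (below 0 without relapse 2 or SG 5), and ciRNA549 from -2.14 (without relapse 2) to 3.65 in relapse against sham. Shares of the main Ugt2b15 circle differed by -2.03 to 9.09 points (SG against sham) and -2.82 to 8.29 (relapse against sham), below 0 without sham 3. Hosts past the threshold ranged from 0 to 2, 0 to 2 and 0 to 5, the last without sham 5, and junctions from 0 to 2, 0 to 9 and 0 to 8, the highest without a relapse library. Depth limits Ugt2b15 most, with 7 reads in sham library 5 over the junctions that the rule reached (28 with the gene by gene join).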
